A study of Rattus norvegicus with 18 samples.

Results

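The comparison set kidneys of stroke-prone spontaneously hypertensive rats (SHRSP) against kidneys of spontaneously hypertensive rats (SHR), both at 6 weeks of age. Its members were chosen by their sample labels, 3 arrays of SHRSP and 3 arrays of SHR, which are 6 of the 18 arrays of the series. The other arrays hold both strains at 3 weeks and the normotensive Wistar-Kyoto (WKY) strain at both ages. All rats were untreated, came from the Izm colonies and, for the older age, were bought at 5 weeks and kept for 1 week. The strains differ over their whole genetic background, so no single allele separates the groups. Each array measured total RNA of kidney, labelled in 1 colour, with probes of 60 bases, and the labels call the 3 arrays of a group biological replicates.

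SHR develop high blood pressure with age, and SHRSP were bred from them for a high rate of stroke. The kidney takes part in setting blood pressure through salt and water handling and through the angiotensin system, in which peptides cut from angiotensinogen act on vessels and tubules. Both strains are inbred, so a transcript can differ between them through a sequence variant at its own gene, at a regulator or under the probe itself.

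Signals are given as relative signal, which is the signal of a probe in percent of its array's 75th percentile. A probe is called detected on an array where the scanner software marked its signal as well above background. Between 71.0% and 73.1% of the spots were so marked on the 6 arrays. The test covered 19667 of 30359 probes, those detected on every array of SHR, of SHRSP or of both. The number of arrays, 3 in each group, limits the precision.

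The strain labels at 6 weeks ran against those at 3 weeks for the strongest differences. Of the 32 probes that differed by 4-fold or more at both ages, all 32 had opposite signs at the 2 ages. Of the 220 probes that differed by 1.5-fold or more at both ages, 194 (88.2%) had opposite signs, against 54.8% of all probes tested. *Agtrap* shows the pattern. In the 3-week arrays its relative signal was 244, 233 and 236 in those labelled SHR, 8.32, 5.54 and 6.37 in those labelled SHRSP and 265, 264 and 291 in WKY. At 6 weeks it was 13.7, 11.9 and 13.4 under the label SHR, 369, 387 and 409.7 under SHRSP and 369, 310.4 and 301 in WKY, so that the low group had the other label. *Vegfb* did the same, at 0.274, 0.262 and 0.197 under the label SHR and 71.9, 65.2 and 73.3 under SHRSP at 3 weeks. The groups are kept as labelled, and SHR and SHRSP below always mean the arrays that carry these labels at 6 weeks. Why the signs differ between the ages was not tested, and whether labels were exchanged at 1 age is not known. If they were exchanged at 6 weeks, every direction between SHR and SHRSP given below would turn. The change of the difference from 3 to 6 weeks passed the test for 2049 of 19667 probes (10.4%), and 16.2% of the same probes differed at 3 weeks. The count of 2049 takes the labels at both ages as given, and would differ if labels were exchanged at 1 age.

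**Figure D1:**
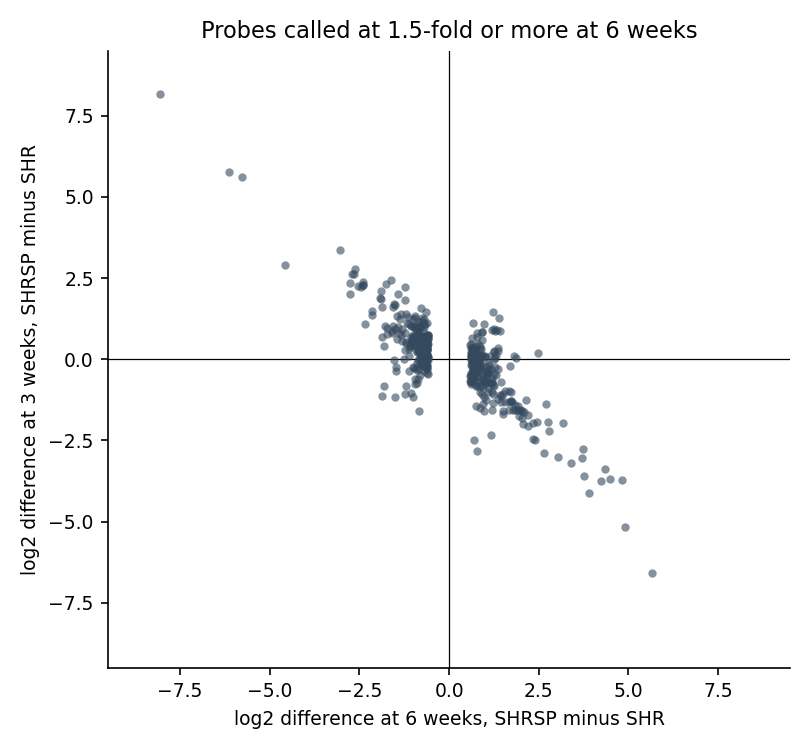
Log2 difference, SHRSP minus SHR, at 6 weeks (x axis) and at 3 weeks (y axis) for the 456 probes called at 1.5-fold or more at 6 weeks, 1 point for each probe. The signs at the 2 ages are opposite for 345 of them.

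The tissue matched its label. *Umod*, a protein of the thick ascending limb, had a relative signal of 9100.1, 9889 and 9975 in SHR and 10659, 9964 and 9989.9 in SHRSP, and *Aqp2*, the water channel of the collecting duct, of 2661, 2526 and 2410.5 in SHR and 2924, 2888 and 2601 in SHRSP. The arrays of the strains overlapped for both genes. Of the 9 proximal tubule, 4 thick ascending limb and 7 collecting duct markers tested, 1 was called, and of 7 podocyte markers also 1, each lower in SHRSP by less than 1.5-fold. Over all probes tested 4.25% were called at an adjusted p under 0.05. This share stands beside every count of markers given here and below. Of 3 distal convoluted tubule markers 0 were called, but their sum, led by *Slc12a3*, was 767, 713 and 704 in SHR and 623, 658 and 624 in SHRSP, lower in SHRSP without overlap, with a median log2 difference of -0.21.

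Sums over markers of other cells differed between arrays. Of the blood markers tested 0 were called, and their median log2 difference was -0.287. The summed relative signal of the 6 blood markers tested, led by *Hba-a1*, was 8627, 9937 and 9586 in SHR and 11042, 7530.3 and 5826 in SHRSP. The 9 immune cell markers, led by *Lyz2*, summed to 2330.1, 2541 and 2584 in SHR and 2256, 1811 and 1590.0 in SHRSP. SHRSP replicates 2 and 3 were the lowest arrays for both sums. *Cd3g*, part of the T cell receptor complex, was at 3.04, 3.33 and 2.98 in SHR and 0.884, 1.28 and 2.12 in SHRSP, and *Cd68*, a macrophage protein, at 32.0, 34.7 and 32.4 in SHR and 28.3, 18.9 and 18.7 in SHRSP. *Cd3g* was lower in every SHRSP array than in any SHR array, and so was *Cd68*. These were the 2 called of the 9 immune cell markers, whose median log2 difference was -0.067. Of the others, 1 was higher in SHRSP at an unadjusted p under 0.05 from limma. *Cd3g* was called with an adjusted p of 0.00342 (4.08e-05 to 0.073 over the alternatives, the highest with normexp background correction). *Cd68* had an adjusted p of 0.00811 (0.601 with slide as a block, and 4.38e-05 to 0.677 over the alternatives), and was not called without SHRSP replicate 2 or without SHRSP replicate 3 (adjusted p = 0.0513 and 0.0556). In RNA of whole kidney, fewer cells of a type and less RNA per cell cannot be told apart, and the part of these markers in the results was not tested.

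SHRSP and SHR differed at 835 of 19667 probes (4.25%) at an adjusted p under 0.05 from limma, 363 higher (1.85%) and 472 lower (2.4%) in SHRSP. At 1.5-fold or more, 456 probes (2.32%) of 421 genes or unnamed transcripts were called, 215 higher (1.09%) and 241 lower (1.23%). Moderate differences made up most of these, with 409 probes between 1.5- and 4-fold. At 4-fold or more, 47 probes (0.239%) were called, 29 higher (0.147%) and 18 lower (0.0915%). The arrays of the strains did not overlap for 454 of the 456 probes and for 6140 of all probes tested (31.2%). On 24 of the 47 probes 1 strain had no array on which the probe was detected. For such probes the fold is given as a lower bound, against the lowest detected signal of each array in place of a lower value. With all signals under that level raised to it, 35 probes reached 4-fold, 21 higher and 14 lower. The bound holds for the scaled signals only, and normexp background correction gave smaller differences for weak signals, which are given below for genes of 4-fold or more that are described with their signals and whose fold became smaller by a factor of 1.5 or more. With it 16 probes reached 4-fold, 7 higher and 9 lower, so that the direction with more probes at 4-fold also turned.

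Which direction had more probes at any fold depended on the scaling. With the 75th percentile taken over all probes the count was 618 higher and 566 lower, and over the probes detected on all 18 arrays 616 higher and 559 lower. Quantile normalization gave 513 higher and 625 lower, and normexp background correction 367 higher and 344 lower. At 1.5-fold or more the direction also turned with the 75th percentile over all probes (235 higher and 232 lower). It turned too over the probes detected on all 18 arrays (235 and 221) and with normexp (145 and 123). With quantile normalization it did not (219 and 244).

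Slide and strain were partly joined. SHR replicates 1 to 3 and SHRSP replicate 1 lay on slide 4, scanned on 1 day, and SHRSP replicates 2 and 3 on slide 5, scanned on another. With slide as a block, which rests the contrast on SHRSP replicate 1, 355 probes were called at any fold (192 higher and 163 lower, 314 of them among the 835), 314 at 1.5-fold or more and 53 at 4-fold or more. Genes whose signals are given below and that lost their call in this way are given with that adjusted p, and with the lowest and highest adjusted p over the 22 alternatives tried or those that could test the gene. Some of them had a difference as large with slide as a block. The log2 difference went from -2.77 to -3.18 for *Zbtb16*, from -0.84 to -0.89 for *Npas2* and from 0.65 to 0.66 for *Vwf*. In others it became smaller, from -0.62 to -0.22 for *Cd68* and from -0.78 to -0.54 for *Klf15*.

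**Figure D2:**
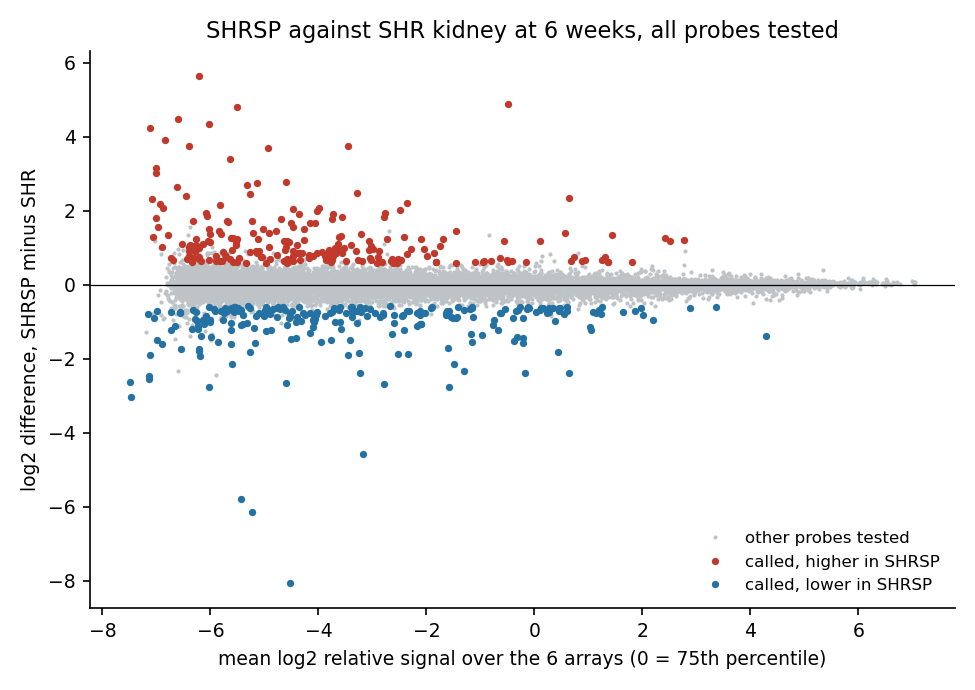
Log2 difference, SHRSP minus SHR, at 6 weeks (y axis) by mean log2 relative signal over the 6 arrays (x axis, 0 being the 75th percentile), 1 point for each of the 19667 probes tested. Coloured points are the 215 probes higher and the 241 lower in SHRSP by 1.5-fold or more.

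The probes of 6 of the genes described below are printed because a value rests on how well each strain's transcript matches these bases. Each is written from 5′ to 3′ in lower case, with the position and strand of its match on rat build rn4.
*Vegfb*, chr1:209657830-209657889, minus strand: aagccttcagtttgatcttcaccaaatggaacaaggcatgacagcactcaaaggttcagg
*Apoh*, chr10:97732840-97732899, plus strand: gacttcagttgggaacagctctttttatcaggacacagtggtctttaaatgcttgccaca
*Rxrg*, chr13:83298626-83298685, plus strand: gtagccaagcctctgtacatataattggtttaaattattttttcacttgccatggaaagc
*Agtrap*, chr5:165154364-165154423, minus strand: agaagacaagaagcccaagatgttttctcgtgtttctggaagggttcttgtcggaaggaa
*Ephx2*, chr15:45535737-45538220, minus strand: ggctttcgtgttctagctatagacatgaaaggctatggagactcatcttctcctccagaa
*Hrg*, chr11:80248652-80248711, minus strand: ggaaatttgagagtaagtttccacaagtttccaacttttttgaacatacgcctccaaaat
The match of *Ephx2* covers more bases of the chromosome than the probe holds. The array files name no exon or UTR at these positions, and no sequence of these strains was at hand, so a variant under a probe was not tested.

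*Vegfb*, a growth factor of the VEGF family, had a relative signal of 73.0, 76.2 and 64.8 in SHR and 0.242, 0.309 and 0.256 in SHRSP. The gene was detected on no SHRSP array and lay at least 77.7-fold lower there (limma, adjusted p = 1.68e-15), or 26.4-fold with normexp background correction, while WKY, at 81.2, 78.3 and 73.1, lay near SHR. Of the 19 genes of VEGF and angiopoietin signalling tested, *Vegfb* was the 1 called, against 4.25% of all probes tested. The list median was 0.08 on the log2 scale, against -0.001 over all probes tested. Under 3 of the 4 scaling and background alternatives a further gene of the list was called as lower.

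*Apoh*, a plasma protein that binds phospholipids, was at 23.4, 20.6 and 23.0 in SHR and 0.797, 0.213 and 0.186 in SHRSP. It was detected on no SHRSP array and was at least 24.3-fold lower (limma, adjusted p = 1.44e-07), or 9.25-fold with normexp, with WKY at 20.8, 17.3 and 25.5. *Rxrg*, a retinoid X receptor, was at 52.3, 53.8 and 56.4 in SHR and 2.60, 1.93 and 2.31 in SHRSP. It was detected on all 6 arrays and was 24.0-fold lower in SHRSP (limma, adjusted p = 9.23e-12), or 11.4-fold with normexp, with WKY above both strains at 75.7, 73.1 and 71.6.

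*Serhl2*, a serine hydrolase-like gene, was at 88.7, 86.6 and 88.3 in SHR and 13.7, 12.6 and 12.3 in SHRSP. The 6.84-fold drop (limma, adjusted p = 6.16e-11) left SHRSP below WKY, at 84.4, 78.6 and 77.3. *Pxmp4*, a peroxisomal membrane protein, was at 80.5, 72.9 and 77.6 in SHR and 24.7, 27.7 and 26.4 in SHRSP, 2.93-fold lower in SHRSP, and also near SHR in WKY (70.5, 71.9 and 63.3). *Nfe2l3*, a transcription factor of the NF-E2 family, was at 4.57, 4.30 and 4.14 in SHR and 1.18, 0.992 and 0.807 in SHRSP, with WKY at 5.04, 4.21 and 4.56. It was detected on 1 of the 3 SHRSP arrays, so its log2 difference of -2.14, or -0.84 with normexp, gives no exact size.

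For other genes that were lower in SHRSP, WKY lay near SHRSP. *Zfp597*, a zinc finger gene, was at 10.2, 9.95 and 10.8 in SHR and 1.72, 1.48 and 1.73 in SHRSP, and at 1.68, 1.72 and 1.88 in WKY. *Tas1r1*, a taste receptor subunit, was at 80.2, 76.1 and 68.4 in SHR and 17.4, 16.3 and 17.3 in SHRSP, and at 14.9, 12.5 and 12.96 in WKY. SHR was the high strain for both, and the SHRSP arrays did not overlap with it. The log2 difference of *Zfp597* was -2.65, and -1.47 with normexp. *Slc35c2*, a nucleotide sugar transporter homologue, had 296, 311 and 299 in SHR and 136, 135 and 142 in SHRSP, and 142, 137 and 139 in WKY. The differences of SHR and of SHRSP from WKY use the same WKY arrays and are given side by side only.

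*Hes1*, a repressor downstream of Notch, was at 23.2, 20.2 and 17.3 in SHR and 5.84, 5.70 and 5.11 in SHRSP, 3.62-fold lower (limma, adjusted p = 5.33e-07). *Apoc2*, the cofactor of lipoprotein lipase, was at 80.9, 82.0 and 82.1 in SHR and 30.6, 33.9 and 32.0 in SHRSP, and *Cldn9*, a tight junction protein, at 16.0, 16.4 and 14.8 in SHR and 5.94, 5.74 and 5.07 in SHRSP. All 3 genes were lower in every SHRSP array than in any SHR array.

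*Agtrap*, whose product binds the type 1 angiotensin receptor and lowers its signalling, led the genes that were higher in SHRSP and detected in both strains. Its values at 6 weeks, given with the labels above, put SHRSP 29.9-fold above SHR (limma, adjusted p = 4.41e-13) and beside WKY. *Ephx2*, the soluble epoxide hydrolase that breaks down epoxyeicosanoids, was at 2.25, 2.51 and 2.80 in SHR and 35.2, 30.4 and 36.1 in SHRSP. It was 13.5-fold higher (limma, adjusted p = 8.67e-11), or 7.62-fold with normexp, and WKY lay near SHRSP at 25.4, 31.5 and 31.7.

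*Haghl*, a relative of hydroxyacylglutathione hydrolase, was at 0.194, 0.361 and 0.162 in SHR and 3.22, 3.42 and 3.54 in SHRSP. It was detected on no SHR array and was at least 4.21-fold higher (limma, adjusted p = 5.72e-07), or 2.46-fold with normexp. *Hba-a3*, a globin gene, was at 0.183, 0.177 and 0.218 in SHR and 15.3, 8.93 and 6.51 in SHRSP. It too was detected on no SHR array and was at least 11.9-fold higher (limma, adjusted p = 2.89e-08), or 5.75-fold with normexp, and its SHRSP arrays stood in the same order as the summed blood markers, whose part was not tested.

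*Hao1*, a peroxisomal hydroxyacid oxidase, was at 0.998, 0.891 and 1.09 in SHR and 6.29, 6.41 and 6.48 in SHRSP, and WKY, at 2.59, 1.73 and 2.23, lay between the strains. *Ryr1*, the calcium release channel of muscle, was at 0.880, 1.13 and 1.32 in SHR and 7.11, 8.65 and 6.67 in SHRSP, and *Lpar6*, a receptor for lysophosphatidic acid, at 21.1, 23.4 and 21.8 in SHR and 65.6, 57.3 and 57.6 in SHRSP. All 3 were higher in SHRSP with no overlap, by 6.45-, 6.78- and 2.72-fold. With normexp *Hao1* was 2.79-fold and *Ryr1* 3.00-fold higher. *Ryr1* was detected on 2 of the 3 SHR arrays, so its fold gives no exact size. *Ryr1* was the 1 gene called of 3 muscle markers tested, whose sum was 55.7, 57.6 and 45.6 in SHR and 48.8, 63.7 and 50.5 in SHRSP. Of the other muscle markers, 1 was lower at an unadjusted p under 0.05 from limma.

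**Figure D3:**
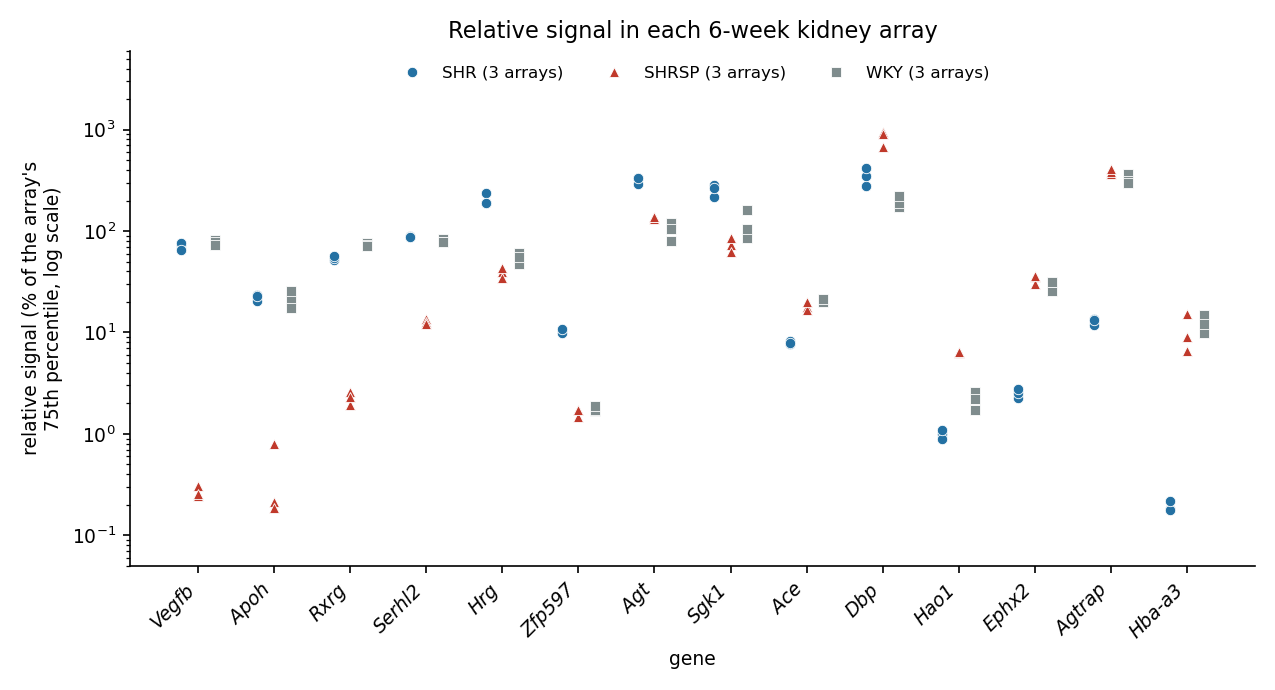
Relative signal (log axis) of 14 genes on each 6-week array, 3 arrays for each strain and 1 point for each array. For *Agtrap* and *Ephx2* the WKY points lie near SHRSP, and for *Vegfb* and *Serhl2* near SHR.

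Genes of fixed lists follow, and their counts stand against 1.85% higher and 2.4% lower over all probes tested. In the angiotensin system 2 genes were higher and 1 lower of 13 tested, with a median log2 difference of 0.06. *Agt*, the angiotensinogen precursor, was at 333, 292 and 332 in SHR and 131, 138 and 137 in SHRSP. SHRSP lay 2.35-fold below SHR (limma, adjusted p = 4.39e-04), and WKY, at 119, 80.1 and 105.3, lay below both. *Ace*, the converting enzyme, was at 7.70, 8.25 and 7.81 in SHR and 17.8, 16.7 and 19.8 in SHRSP. It was 2.28-fold higher (limma, adjusted p = 2.11e-05), its other probe differed by 1.96 on the log2 scale, and WKY lay near SHRSP at 20.8, 20.0 and 21.2.

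Of 26 kinin, coagulation and fibrinolysis genes tested, 2 were higher and 4 lower, *Apoh* among the latter. *Hrg*, a histidine-rich plasma protein, was at 191, 236 and 189 in SHR and 39.4, 34.7 and 43.4 in SHRSP. It was 5.23-fold lower (limma, adjusted p = 1.39e-09), and its other probe differed by -2.40 on the log2 scale. *F2*, prothrombin, was at 169, 129.7 and 134 in SHR and 54.5, 52.2 and 50.6 in SHRSP, and *F5*, the coagulation cofactor, at 5.75, 4.88 and 4.95 in SHR and 9.44, 11.2 and 9.40 in SHRSP. *F2* was lower and *F5* higher in SHRSP without overlap. *Vwf*, the carrier of factor VIII, was at 37.5, 38.5 and 50.5 in SHR and 66.0, 70.5 and 60.4 in SHRSP. Its adjusted p was 0.00408 (0.137 with slide as a block, and 7.96e-04 to 0.137 over the alternatives), and 1 of its 3 probes did not pass the test. *Vwf* is also the 1 gene called of 6 endothelial markers tested. Their sum, led by *Kdr*, was 570.1, 582 and 555 in SHR and 621, 607 and 585 in SHRSP, higher in SHRSP without overlap. Without *Vwf* it was 533, 544 and 504 in SHR and 555, 537 and 525 in SHRSP, and the strains overlapped. Of the other endothelial markers, 1 was lower at an unadjusted p under 0.05 from limma. With quantile normalization and with both other scalings by the 75th percentile, 1 endothelial marker was called as lower. The part of endothelial cells in the *Vwf* difference was not tested.

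Liver markers were measured beside this list, whose median log2 difference was -0.001, as over all probes tested. The median of the liver markers was -0.147. The 7 liver markers tested, led by *Cyp2c11*, summed to 584, 387 and 402 in SHR and 266, 349 and 264 in SHRSP, lower in SHRSP without overlap. Of these, 2 were called, both lower, *F2*, which is in both lists, and *Apob*, a lipoprotein. *Apob* was at 13.1, 11.7 and 12.997 in SHR and 7.41, 7.48 and 7.63 in SHRSP. Its arrays did not overlap, and its adjusted p was 0.00535 (0.122 with slide as a block, and 1.77e-04 to 0.122 over the alternatives). The liver marker sum holds *F2*, so it is not separate from the coagulation list, and it was not taken without *F2*. The part of liver markers in the coagulation genes was not tested.

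Of 30 epoxyeicosanoid and prostanoid genes tested, 2 were higher and 1 lower. Beside *Ephx2* the other higher gene was *Ptgds*, a prostaglandin D synthase (132, 145 and 182 in SHR and 252, 249 and 219.7 in SHRSP), and the lower gene differed by less than 1.5-fold. The *Ptgds* arrays did not overlap, with an adjusted p of 0.00885 (0.15 with slide as a block, and 9.04e-04 to 0.15 over the alternatives), and the gene was not called without SHR replicate 1 (adjusted p = 0.0606).

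In the retinoid and vitamin D list 3 of 22 genes were called, all lower. Beside *Rxrg* these were *Cyp26b1*, which degrades retinoic acid (14.3, 13.5 and 12.1 in SHR and 6.84, 10.4 and 7.58 in SHRSP), and *Aldh1a3*, which makes it (1.78, 3.78 and 3.80 in SHR and 1.43, 0.913 and 0.784 in SHRSP). Every SHRSP array lay below every SHR array for both genes, but both calls were lost when single arrays were left out. *Cyp26b1* had an adjusted p of 0.0104 (3.28e-04 to 0.0615 over the alternatives), and of 0.0597, 0.0615 and 0.0585 without SHR replicate 1, SHRSP replicate 1 and SHRSP replicate 3. *Aldh1a3* had an adjusted p of 0.0438 (0.304 with normexp background correction, 0.623 with slide as a block, and 0.00146 to 0.674 over the alternatives), and was not called without SHR replicate 2 or 3 or SHRSP replicate 2 or 3 (adjusted p = 0.18, 0.167, 0.141 and 0.189). *Cyp26a1*, a relative of *Cyp26b1* outside the list that was singled out after its values were seen, was at 2.78, 2.81 and 2.70 in SHR and 3.86, 5.93 and 4.97 in SHRSP. It went the other way, 1.75-fold higher without overlap, with an adjusted p of 0.0215 (0.661 with slide as a block, and 3.44e-04 to 0.701 over the alternatives), and was not called when any array but SHRSP replicate 1 was left out (adjusted p = 0.0725, 0.0681, 0.0747, 0.118 and 0.0844).

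Genes that respond to glucocorticoids were lower in SHRSP where they were called, 6 of 18 tested against 2.4% of all probes, with a median log2 difference of -0.355 against -0.001. The same count was found under all 4 scaling and background alternatives. At an unadjusted p under 0.05 from limma, 8 of the 18 were lower and 2 were higher. *Sgk1*, a kinase that raises sodium uptake in the distal nephron, was at 286, 217 and 268 in SHR and 73.2, 84.9 and 61.8 in SHRSP. It was 3.51-fold lower (limma, adjusted p = 5.11e-05), and was the 1 gene called of 35 tested for tubular salt and water transport. *Zbtb16*, a zinc finger transcription factor, was at 3.33, 4.53 and 4.32 in SHR and 0.444, 0.663 and 0.701 in SHRSP. It was detected on no SHRSP array and was at least 4.39-fold lower, or 1.96-fold with normexp, with an adjusted p of 0.00266 (0.0507 with slide as a block, and 7.56e-06 to 0.0507 over the alternatives). *Ddit4*, an inhibitor of mTOR signalling, was at 76.2, 78.4 and 94.7 in SHR and 40.1, 51.0 and 38.4 in SHRSP (limma, adjusted p = 0.00335). *Klf15*, a transcription factor, was at 197, 189 and 185 in SHR and 131, 86.8 and 121 in SHRSP, and *Cebpd*, another, at 50.3, 43.9 and 58.5 in SHR and 29.7, 25.0 and 27.6 in SHRSP. All of these genes were lower in SHRSP without overlap. *Klf15* and *Cebpd* had adjusted p values of 0.00847 (0.465 with slide as a block, and 6.71e-04 to 0.478 over the alternatives) and 6.01e-04 (0.0925 with slide as a block, and 1.31e-05 to 0.0925 over the alternatives). *Fkbp5*, a further target of the receptor, was at 127, 91.8 and 119 in SHR and 121, 75.3 and 109 in SHRSP, and *Tsc22d3* at 121, 123 and 154 in SHR and 109, 91.7 and 104 in SHRSP. Neither passed the test (limma, adjusted p = 0.885 and 0.0929).

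Of 17 circadian clock genes tested, 1 was higher and 3 were lower, and 2 or 3 were higher under the scaling and background alternatives. *Dbp*, an output gene of the clock, was at 279, 346 and 416 in SHR and 939, 669 and 908 in SHRSP, and at 173, 188 and 221 in WKY. All 3 *Dbp* probes were called as higher. *Bmal1*, a core activator, was at 36.7, 34.7 and 30.0 in SHR and 14.6, 19.4 and 15.03 in SHRSP, and *Nfil3*, a repressor, at 6.59, 8.81 and 6.88 in SHR and 2.41, 2.38 and 3.25 in SHRSP. Both were lower in SHRSP (limma, adjusted p = 4.37e-04 and 3.50e-06), as was *Npas2* (16.0, 15.8 and 14.8 in SHR and 8.39, 9.21 and 8.41 in SHRSP), with an adjusted p of 0.00246 (0.0785 with slide as a block, and 2.00e-06 to 0.0785 over the alternatives) and another probe that did not pass. Unlike *Agtrap* and *Vegfb*, *Dbp* and *Bmal1* had the same sign at 3 weeks, with log2 differences of 0.88 and -1.04. The hour at which kidneys were taken is not in the labels.

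Of 31 fatty acid oxidation genes tested, 5 were lower, with a median log2 difference of -0.16. *Acot12*, an acyl-CoA thioesterase, was at 14.4, 14.9 and 13.5 in SHR and 8.60, 8.79 and 10.2 in SHRSP (limma, adjusted p = 6.20e-05). *Acot5*, of the same list, was 2.29-fold lower (limma, adjusted p = 0.00364). Its call was lost with slide as a block, where the log2 difference was -1.25 in place of -1.20.

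Of 24 MHC genes tested, 1 was higher and 3 were lower. *Micb*, a ligand of a natural killer cell receptor, was at 0.220, 0.522 and 0.311 in SHR and 1.59, 1.63 and 1.75 in SHRSP. It was detected on no SHR array and was at least 2.05-fold higher (limma, adjusted p = 1.59e-04), or 1.65-fold with normexp. *RT1-Db1*, a class II chain, was at 151, 179 and 186 in SHR and 133, 95.8 and 107 in SHRSP, lower in SHRSP without overlap. It had an adjusted p of 0.0201 (0.586 with slide as a block, and 2.30e-04 to 0.746 over the alternatives), and was not called without SHR replicate 2 or 3 or SHRSP replicate 2 or 3 (adjusted p = 0.0888, 0.0907, 0.11 and 0.0876). The other 2 lower genes differed by less than 1.5-fold. Limma called 0 of 26 interferon-stimulated genes and 0 of 28 cell cycle genes, against 1 and 0 at an unadjusted p under 0.05.

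Of 16 injury genes tested, 3 were lower. *Clu*, which rises in injured tubules, was at 91.9, 106 and 106 in SHR and 70.8, 61.2 and 55.0 in SHRSP, and *Krt18*, a keratin, at 187, 191 and 204 in SHR and 131, 118 and 108 in SHRSP. Both were lower without overlap, with adjusted p values of 6.67e-04 (0.105 with slide as a block, and 8.69e-06 to 0.117 over the alternatives) and 4.09e-04 (0.0599 with slide as a block, and 1.25e-06 to 0.0599 over the alternatives). The remaining gene, *Egf*, differed by less than 1.5-fold, and its probes disagreed in call or sign. At an unadjusted p under 0.05 from limma, 4 of the 16 were lower and 2 were higher. Of 24 matrix genes, 1 was higher and 2 were lower. *Ccn2*, a matrix-linked growth factor, was at 161, 106 and 131 in SHR and 46.4, 44.9 and 45.3 in SHRSP (limma, adjusted p = 1.52e-04). *Tgfb2*, a TGF-beta ligand, was at 1.75, 2.07 and 1.74 in SHR and 0.881, 0.839 and 1.08 in SHRSP, lower without overlap. It had an adjusted p of 0.00337 (0.551 with normexp background correction, 0.0949 with slide as a block, and 3.89e-04 to 0.551 over the alternatives). *Mmp9*, a gelatinase, was at 2.84, 3.24 and 3.598 in SHR and 4.88, 4.98 and 5.07 in SHRSP, higher without overlap. Its adjusted p was 0.0134 (0.11 with slide as a block, and 3.81e-04 to 0.208 over the alternatives), and it was not called without SHR replicate 1 or SHRSP replicate 3 (adjusted p = 0.0856 and 0.0576).

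Among abundant transcripts, *Ppic*, a peptidyl-prolyl isomerase, was at 3216, 3031 and 3179 in SHR and 1293, 1135 and 1210.4 in SHRSP. It was 2.59-fold lower (limma, adjusted p = 4.94e-09), and WKY, at 1342, 1519 and 1591, lay nearer to SHRSP. *Gng13*, a G protein subunit, was at 445, 439 and 456 in SHR and 1064, 1036 and 1033 in SHRSP, 2.34-fold higher, and its other probe differed by 1.19 on the log2 scale. *Asrgl1*, an asparaginase, was at 575, 658 and 680.4 in SHR and 339, 325 and 329 in SHRSP, with WKY near SHR at 580.1, 613 and 610.5.

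Several probes were tested for 2007 genes. Of the 67 with a probe called at 1.5-fold or more, all probes had 1 sign in 60 and all were called in 29. *Zfp14*, a zinc finger gene, was at 6.73, 6.63 and 6.85 in SHR and 18.2, 16.1 and 17.8 in SHRSP by its brighter probe, while its other probe was called the other way, with a log2 difference of -0.59 (limma, adjusted p = 0.0015).

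By position on rn4, 353 of 16187 placed genes and transcripts were called at 1.5-fold or more (2.18%). Chromosome 15 had the highest share, 18 of 473 (3.81%), and chromosome 16 the lowest, 3 of 470 (0.638%). On chromosomes 6 and 20 the 8 and 4 called genes were all lower in SHRSP. Called genes lay near each other, with another called gene within 1 Mb for 51.8% of them, against 31.5% of all genes tested. Neighbours on an inbred chromosome are inherited together and are not separate observations. Probes without a gene symbol were counted by their name in the array files, so that 1 transcript may count more than once. This may hold for the called probes at chr14:49289465-49289524 and chr14:49289841-49289900.

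**Figure D4:**
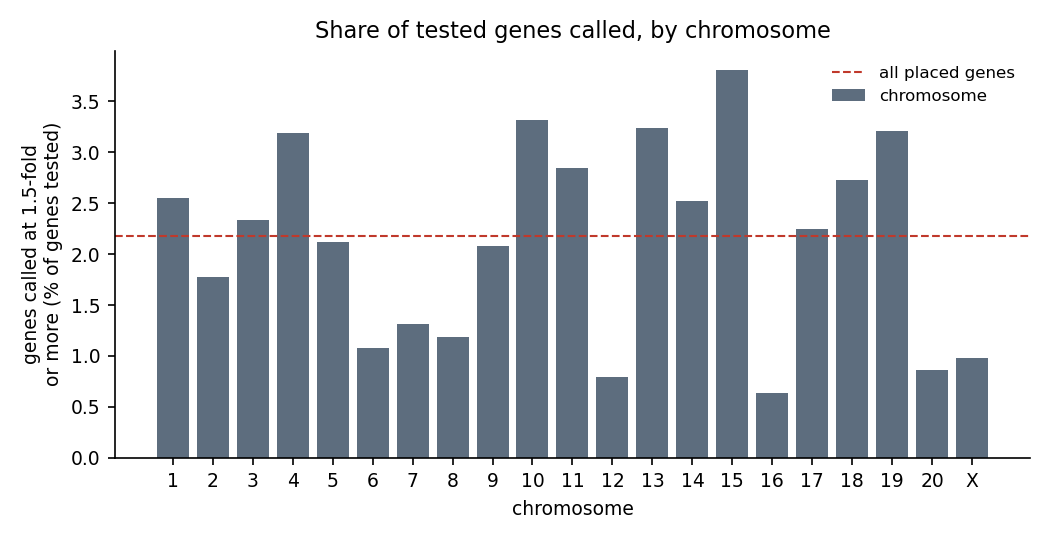
Percent of tested genes called at 1.5-fold or more on each chromosome, with the share over all placed genes (2.18%) as a dashed line. Chromosome 15 stands highest, at 3.81%, and chromosome 16 lowest, at 0.638%.

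In windows of 5 Mb with at least 10 genes tested, the share called was highest on chromosome 14 from 45000001 to 50000000, where 7 of 39 were called, all higher in SHRSP. On chromosome 1 from 20000001 to 25000000, 3 of 19 were called, all lower, *Ccn2* and *Sgk1* among them. On chromosome 4 from 55000001 to 60000000, 5 of 33 were called, all higher, *Lrrc4* among them. *Lrrc4*, a synaptic adhesion protein, was at 0.666, 1.28 and 0.747 in SHR and 1.83, 1.69 and 1.81 in SHRSP. Its arrays did not overlap, and it had an adjusted p of 0.0354 (0.354 with slide as a block, and 0.00174 to 0.354 over the alternatives), and was not called when any array but SHR replicate 2 was left out (adjusted p = 0.189, 0.136, 0.107, 0.0868 and 0.117).

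On chromosome 19 from 50000001 to 55000000, 9 of 67 were called. *Agt* and *Cog2*, a subunit of a Golgi complex, have neighbouring probes at chr19:54738614-54738673 and chr19:54736152-54736211. *Cog2* was at 187, 171 and 168 in SHR and 114, 102 and 107 in SHRSP, with WKY near SHR at 173, 169 and 165, and its other probe did not pass the test. *Banp*, a nuclear matrix-binding protein at chr19:52268424-52268483, was at 98.5, 91.2 and 82.8 in SHR and 18.3, 18.4 and 17.2 in SHRSP, and WKY, at 34.8, 51.7 and 57.8, lay between them. *Abcb10*, a mitochondrial transporter, was lower too, at 142, 128 and 125 in SHR and 47.5, 49.6 and 50.5 in SHRSP. *Dpep1*, a dipeptidase of the proximal tubule, and *Galnt2*, which starts O-linked glycans, were the 2 genes of the window that were higher, at 204, 199 and 219.6 in SHR and 347, 306 and 303 in SHRSP, and at 72.1, 71.7 and 72.5 in SHR and 115, 106 and 111 in SHRSP.

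Of the 7 called transcripts of the chromosome 14 window, 4 belong to a repeated gene family, as do 2 of those in the chromosome 4 window. The array files describe the family as similar to discs large homolog 5 or by related clone names. The family was singled out after its values were seen. Of its 34 probes tested, 27 were called at 1.5-fold or more, all higher in SHRSP, 8 of them at 4-fold or more, and 7 were not called. Over all probes tested, 1.09% were called as higher at 1.5-fold or more and 0.147% at 4-fold or more. Of the 8, 4 were detected on no SHR array, and the lower bound of 3 of these was under 4-fold. Under the 4 scaling and background alternatives 26 or 27 were called as higher and 0 as lower. The sizes fell with normexp, where the median log2 difference of the 34 probes was 0.90 in place of 1.70 and 1 probe reached 4-fold. Family probes lie on chromosomes 4, 9, 14 and 19 and on sequence not placed, and 21 of the 34 share a run of 15 to 41 bases with another family probe. Such probes may bind each other's transcripts and are not separate measurements. The other 13 share no run of more than 12 bases, and 7 of them were called, against 20 of the 21. Longer runs are shown by 4 probes, with the longest run shared with another family probe in capitals.
LOC301193, chr14:49143924-49143983: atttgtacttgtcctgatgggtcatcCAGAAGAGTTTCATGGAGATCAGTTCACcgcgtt
LOC501224, not placed: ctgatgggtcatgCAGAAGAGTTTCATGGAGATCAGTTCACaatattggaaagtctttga
ENSRNOT00000043269, chr9:5887202-5887261: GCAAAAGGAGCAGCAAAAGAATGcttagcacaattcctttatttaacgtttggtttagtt
LOC363306, not placed: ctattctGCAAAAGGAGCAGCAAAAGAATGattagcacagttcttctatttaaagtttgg
The first pair shares 28 bases and had log2 differences of 2.03 and 1.90 (1.78 and 1.49 with normexp). The other pair shares 23 bases. These 2 probes were detected on no SHR array and were at least 14.5- and 3.88-fold higher, with log2 differences of 2.43 and 1.51 with normexp.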

How the data were processed

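Kidney RNA was hybridized in 1 colour to whole rat genome arrays. The deposited files hold spot intensity, background-subtracted by the authors' scanner software (Feature Extraction 10.5.1.1), and the deposited series matrix held the same intensity (0 values differing at a relative tolerance of 1e-06). Control spots and outlier spots were left out, the other spots of a probe were averaged as log2 values, and 8 of 30367 probes were dropped because an array had no spot left. Each array was scaled by the 75th percentile of its non-control spots marked well above background. All 18 arrays, in 6 groups, were fitted with limma 3.58.1 in R 4.3.3, and p values were adjusted by Benjamini-Hochberg over the 19667 probes tested. Gene names came from RefSeq for 20879 probes and otherwise from the files. The brightest probe stands for a gene. Members and lists were chosen with earlier results of these data known. Named genes were, in each direction, the 10 with the largest fold detected on all 6 arrays, the 8 with the largest lower bound, the 8 with the smallest adjusted p at moderate fold and the 5 brightest, with list members called at 1.5-fold or more, genes that the study lists and genes called in the 5 leading windows. Of the listed genes, *Ccr1*, *Gabrr1* and *Rbfox1* were not detected on every array of a strain and were not tested. *Umod*, *Aqp2*, *Fkbp5*, *Tsc22d3* and *Egf* are named besides. Some genes that met the rule are not reported here. The fit was tested on simulated data. Alternatives changed scaling, background correction, filter, blocks, weights or arrays.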

Additional observations from a re-analysis of the deposited data

Results flagged for a closer look

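The difference between SHRSP and SHR changed from 3 to 6 weeks (limma, contrast of the 2 differences, adjusted p under 0.05) for 91 of the 106 named genes and transcripts. Over all probes tested this was 2049 of 19667 (10.4%), and over those called at 1.5-fold or more at 6 weeks 361 of 456. The named genes were chosen for their difference at 6 weeks, which is part of the same contrast, so their count is no separate result. The value in brackets is the log2 difference at 6 weeks minus that at 3 weeks. These values and counts take the labels at both ages as given, and would differ if labels were exchanged at 1 age. *Agtrap* had log2 differences of 4.90 at 6 weeks and -5.16 at 3 weeks, and *Vegfb* of -8.05 and 8.18. With labels exchanged at 1 age their bracketed values would be small. Those of genes with the same sign at both ages, such as *Sgk1* and *Npas2*, would be larger in size. The cause of the changes was not tested.

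In 20 of the 91 a strain had no array on which the probe was detected at 1 age or both, and the bracketed value gives no exact size. These were A_64_P122975, *Apoh*, ENSRNOT00000040456, *Fibin*, *Gckr*, *Haghl*, *Hba-a3*, *Kcne2*, *Lbp*, *Lilrb3l*, *Micb*, *Or10d5j*, *Or51ab3*, RGD1562026, *Rgs11*, *Ryr1*, *Slc35g1*, *Tdh*, *Vegfb* and *Zbtb16*.

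In 19 of the 91 the difference at 3 weeks did not itself pass the test, and its sign is that of the estimate only. These were *Apob*, *Btg2*, *C19h16orf74*, *Cadps*, *Cd3g*, *Cd68*, *Cyp26b1*, *Gckr*, *Inmt*, *Kcne2*, *Klf15*, *Lrrc4*, *Nfil3*, *Or10d5j*, *Or51ab3*, *Ptgds*, RGD1562026, *Slc35g1* and *Zg16b*.

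With slide as a block 6 genes named only in this section lost their call at 6 weeks. These were, with that adjusted p and its range over the alternatives, *C19h16orf74* (0.0631, and 1.22e-05 to 0.0713), *Gckr* (0.271, and 2.18e-04 to 0.281), *Inmt* (0.0649, and 1.90e-04 to 0.0649), *Or10d5j* (0.267, and 2.25e-04 to 0.27), *Or51ab3* (0.164, and 1.01e-05 to 0.175) and *Slc35g1* (0.0584, and 5.68e-05 to 0.441).

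In 37 of the 91 the difference, SHRSP minus SHR, was below 0 at 3 weeks and above 0 at 6 weeks, and 33 of them passed the test at 3 weeks. The 37 were *Hba-a3* (12.22), *Agtrap* (10.06), *Haghl* (8.03), A_64_P122975 (7.73), *Ephx2* (7.34), *Lilrb3l* (5.51), ENSRNOT00000040456 (4.89), *Micb* (4.80), *Ryr1* (4.69), ENSRNOT00000046075 (4.37), *Tdh* (4.25), *Hao1* (4.08), LOC301193 (3.84), ENSRNOT00000059076 (3.71), LOC688956 (3.59), BC091362 (3.54), *Pmfbp1* (3.24), BI286431 (3.20), *Bpi* (3.19), ENSRNOT00000051405 (3.03), *Zfp14* (2.58), *Ace* (2.19), *Lpar6* (2.15), *Gng13* (2.002), *Eif2ak2* (1.97), MGC116197 (1.89), *F5* (1.78), A_64_P162222 (1.56), *Fuom* (1.54), *Or10d5j* (1.52), *Or51ab3* (1.51), *Lrrc4* (1.41), *Comtd1* (1.32), *Dpep1* (1.30), *Mmp9* (1.12), *Galnt2* (1.05) and *Ptgds* (1.03).

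In 47 it was above 0 at 3 weeks and below 0 at 6 weeks, and 37 of them passed at 3 weeks. The 47 were *Vegfb* (-16.23), *Apoh* (-11.90), *Rxrg* (-7.48), *Zfp597* (-5.29), *Serhl2* (-5.12), *Zbtb16* (-4.76), *Hrg* (-4.66), *Rgs11* (-4.07), *Mettl2* (-4.00), *Lbp* (-3.83), *Tas1r1* (-3.62), *Nfe2l3* (-3.52), *Hes1* (-3.47), *Agt* (-3.46), *Abcb10* (-3.42), *Banp* (-3.41), *Pxmp4* (-3.26), *Fibin* (-2.81), *F2* (-2.79), RGD1562378 (-2.71), *Ppic* (-2.63), *Cldn9* (-2.44), *Slc35c2* (-2.22), *Cadps* (-2.21), *Asrgl1* (-2.20), *Apoc2* (-2.09), *C19h16orf74* (-2.07), *Tgfb2* (-1.99), *Clu* (-1.78), *Arhgdib* (-1.70), *Mterf1* (-1.67), *Cd3g* (-1.50), *Slc35g1* (-1.48), *Gckr* (-1.43), *Nup133* (-1.35), *Krt18* (-1.35), ENSRNOT00000068510 (-1.32), *Trappc6a* (-1.28), *Cog2* (-1.25), *Afg3l1* (-1.20), *Acot12* (-1.02), *Apob* (-0.94), *Slc22a24* (-0.91), *Klf15* (-0.83), *Cyp26b1* (-0.78), *Inmt* (-0.74) and *Cd68* (-0.64).

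In 7 the sign was the same at both ages and the size changed, and 2 of them passed at 3 weeks. The 7 were *Zg16b* (1.18), *Nfil3* (-1.11), *Sgk1* (-0.99), *Kcne2* (0.81), *Npas2* (0.74), *Btg2* (-0.62) and RGD1562026 (0.56).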

How the results depend on the processing

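Of the 106 named genes and transcripts, none changed its direction under any of the 22 alternatives that could test it, and 72 were called in all of them. With slide and scan day as a block 29 and 29 lost their call, and with normexp background correction 8. At any fold 1608 probes were called with only the 6 arrays in the fit, 3313 with array weights, 355 with slide as a block and 325 with scan day as a block, against 835. Both blocks rest on SHRSP replicate 1. At 1.5-fold, normexp gave 268 and scan day as a block 293, against 456. At 4-fold, normexp gave 16, 7 of them higher, and the filter to probes detected on all 6 arrays, which tests fewer probes, gave 18, against 47. Leaving out 1 array gave 538 to 649 probes at any fold, 376 to 430 at 1.5-fold and 52 to 54 at 4-fold. The count at any fold was 546 without SHR replicate 1, 538 without SHR replicate 2 and 545 without SHRSP replicate 3. With the replicate block the counts were 780, 448 and 47. Slide as a random block, chosen after seeing the data, gave 930, 461 and 47. Windows of 5 Mb with 10% or more of their genes called numbered 13, against 31 at 2 Mb, 6 at 10 Mb and 58 at any fold. Except for the filter, the cause was not tested. Signal near background limits the size of folds given as bounds.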

Other observations

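Sums of relative signal for tissues next to the kidney were also measured. The 6 adipose markers tested, led by *Cidea*, summed to 140.4, 152 and 156 in SHR and 253, 114 and 104.7 in SHRSP, with SHRSP replicate 1 the highest array. The 6 adrenal markers, led by *Th*, summed to 67.5, 67.4 and 59.2 in SHR and 58.3, 70.6 and 65.7 in SHRSP, and the strains overlapped.

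Of 19 immediate early genes tested, 3 were lower in SHRSP, with a median log2 difference of -0.21. *Btg2*, the 1 of these at 1.5-fold or more and an antiproliferative factor, was at 29.8, 33.1 and 33.3 in SHR and 20.0, 18.9 and 17.9 in SHRSP, with an adjusted p of 0.00274 (0.0925 with slide as a block, and 1.59e-05 to 0.155 over the alternatives). Under the scaling and background alternatives 1 or 2 genes of the list were called.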
